A study of Mus musculus with 12 samples.

Results

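The matrix metalloproteinases (MMPs) and their tissue inhibitors (TIMPs) described here are 10 genes, namely Mmp2, Mmp3, Mmp9, Mmp10, Mmp13, Mmp14, Mmp19, Timp1, Timp2 and Timp3, out of 52636 genes in the tables of both cell types. They were taken by gene symbol, and were selected on their siKlf4 against Scr contrasts and their baseline TPM. The values of these 10 genes in those contrasts are therefore a description, and no test is attached to them. Tests are given only for other genes. The lists of these genes were also chosen with earlier results of these data known, so their tests are not independent of that choice. The study asked how the transcription factor KLF4 acts in mesenchymal cells of the mouse lung, and RNA of whole cultures was sequenced in bulk, in 12 libraries with 3 in each of 4 groups. Cultured smooth muscle cells (SMCs) and PDGFR-β+ cells each received either a scrambled control RNA (Scr) or a small interfering RNA against Klf4 (siKlf4). All groups were labelled wild type and C57BL/6, and all were given 50 nM RNA for 6 h and then cultured for 72 h. The SMCs are a commercial product of CellBiologics with no age in the labels, called airway SMCs in the sample titles and tracheal SMCs in the source. The PDGFR-β+ cells came from lungs of mice labelled 12 weeks old. The methods describe such cells as Zs+ cells, sorted after tamoxifen from Pdgfrb-CreERT2, ROSA26R(Zs/+) lungs, in which the Pdgfrb promoter drives the recombinase and Zs is its reporter. They state 3 independent experiments and do not say how many animals stand behind a library, so the spread between libraries may be partly technical.

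MMPs are zinc-dependent proteases that are made as inactive proenzymes and together can cleave most proteins of the extracellular matrix. TIMPs bind the active site of the mature enzymes and block them, and the balance between both groups is a classical measure of matrix turnover in fibrosis. In lung mesenchyme several genes of both groups are expressed by activated fibroblasts and by smooth muscle in culture.

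Values are TPM, which divide the reads of a gene by its length and scale each library to a total of 1000000 transcripts. Klf4 itself measured 89.6 to 96.3 TPM in Scr and 16.3 to 26.5 TPM in siKlf4 SMCs, and 134 to 146 TPM in Scr and 12.3 to 13.8 TPM in siKlf4 PDGFR-β+ cells. SMCs kept 21.9% of the Scr level and PDGFR-β+ cells 9.16%. From 20590 to 21780 genes of a library had a value above 0, and the methods state a target number of clusters per library, while the depth each library reached cannot be read from TPM. In the SMC table, 1 Scr and 1 siKlf4 library carry no replicate number. These unnumbered libraries stood apart from the others in several members, so SMC values are listed in the order unnumbered, replicate 2, replicate 3, and SMC differences are given also within the 4 numbered libraries and between the 2 unnumbered ones. In PDGFR-β+ cells the order is replicates 1 to 3.

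Of the 10 members, 3 lie in 1 cluster of 10 Mmp genes on chromosome 9 of GRCm38 (mm10), which spans 427072 bp from 7272514 to 7699585. Mmp13 opens the cluster, Mmp3 starts 173308 bp further on, and Mmp10 starts 56530 bp after Mmp3. The promoters of these 3 genes are shown because their transcripts behaved differently from each other in the same cells. The stretches are the 120 bases before the RefSeq start of each gene (GRCm38.p6, forward strand), at chr9:7445702-7445821 for Mmp3, chr9:7502222-7502341 for Mmp10 and chr9:7272394-7272513 for Mmp13. Capitals mark the AP-1 letters TGANTCA, the KLF core letters CACCC (or GGGTG, the same letters on the other strand) and the TATA box letters TATAAA.
Mmp3: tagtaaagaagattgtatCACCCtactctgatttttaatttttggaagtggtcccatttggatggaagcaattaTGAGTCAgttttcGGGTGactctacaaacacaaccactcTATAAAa
Mmp10: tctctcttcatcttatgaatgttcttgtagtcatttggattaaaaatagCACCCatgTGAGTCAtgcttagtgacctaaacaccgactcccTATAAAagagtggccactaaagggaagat
Mmp13: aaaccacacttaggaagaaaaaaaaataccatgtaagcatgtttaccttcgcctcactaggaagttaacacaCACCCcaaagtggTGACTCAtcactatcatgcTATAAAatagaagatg
The AP-1 letters lay 46 to 40 bases before the start in Mmp3, 63 to 57 in Mmp10 and 35 to 29 in Mmp13. No marked motif overlapped another in these stretches.

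RefSeq promoters, from 250 bases before to 50 bases after the start, were at hand for 7 of the 10 members (Mmp3, Mmp10, Mmp13, Mmp14, Timp1, Timp2 and Timp3). On either strand, TGANTCA was in 3 of the 7, the same 3 as above, and in 7.81% of all 32851 promoters. TATAAA was in the same 3 members and in 13.6% of all promoters. The GC box letters GGGCGG were in the other 4, Mmp14, Timp1, Timp2 and Timp3, and in 35.7% of all promoters. CACCC was in all 7 and in 57.5% of all promoters, and the PEA3 ETS letters AGGAAG were in 5 of the 7 and in 35.4%. A match is a string of letters and was not shown to be a binding site.

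In SMCs, 9 of the 10 members averaged 1 TPM or more and entered the fit over all genes, and Mmp9 did not. The Scr and siKlf4 libraries did not overlap for 8 of the 9, all but Mmp13, against 47.1% of all tested genes. In PDGFR-β+ cells the same 9 entered, and the groups did not overlap for 7, all but Mmp2 and Mmp10, against 53.8% of all tested genes. The median difference of the members was 0.16 in SMCs and -1.12 in PDGFR-β+ cells on the log2(TPM + 1) scale, beside 0.02 and 0.10 for all tested genes. Because the members were picked with these contrasts in view, nothing is read from these counts. In bulk RNA, fewer cells of a type and less RNA per cell cannot be told apart.

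**Figure D1:**
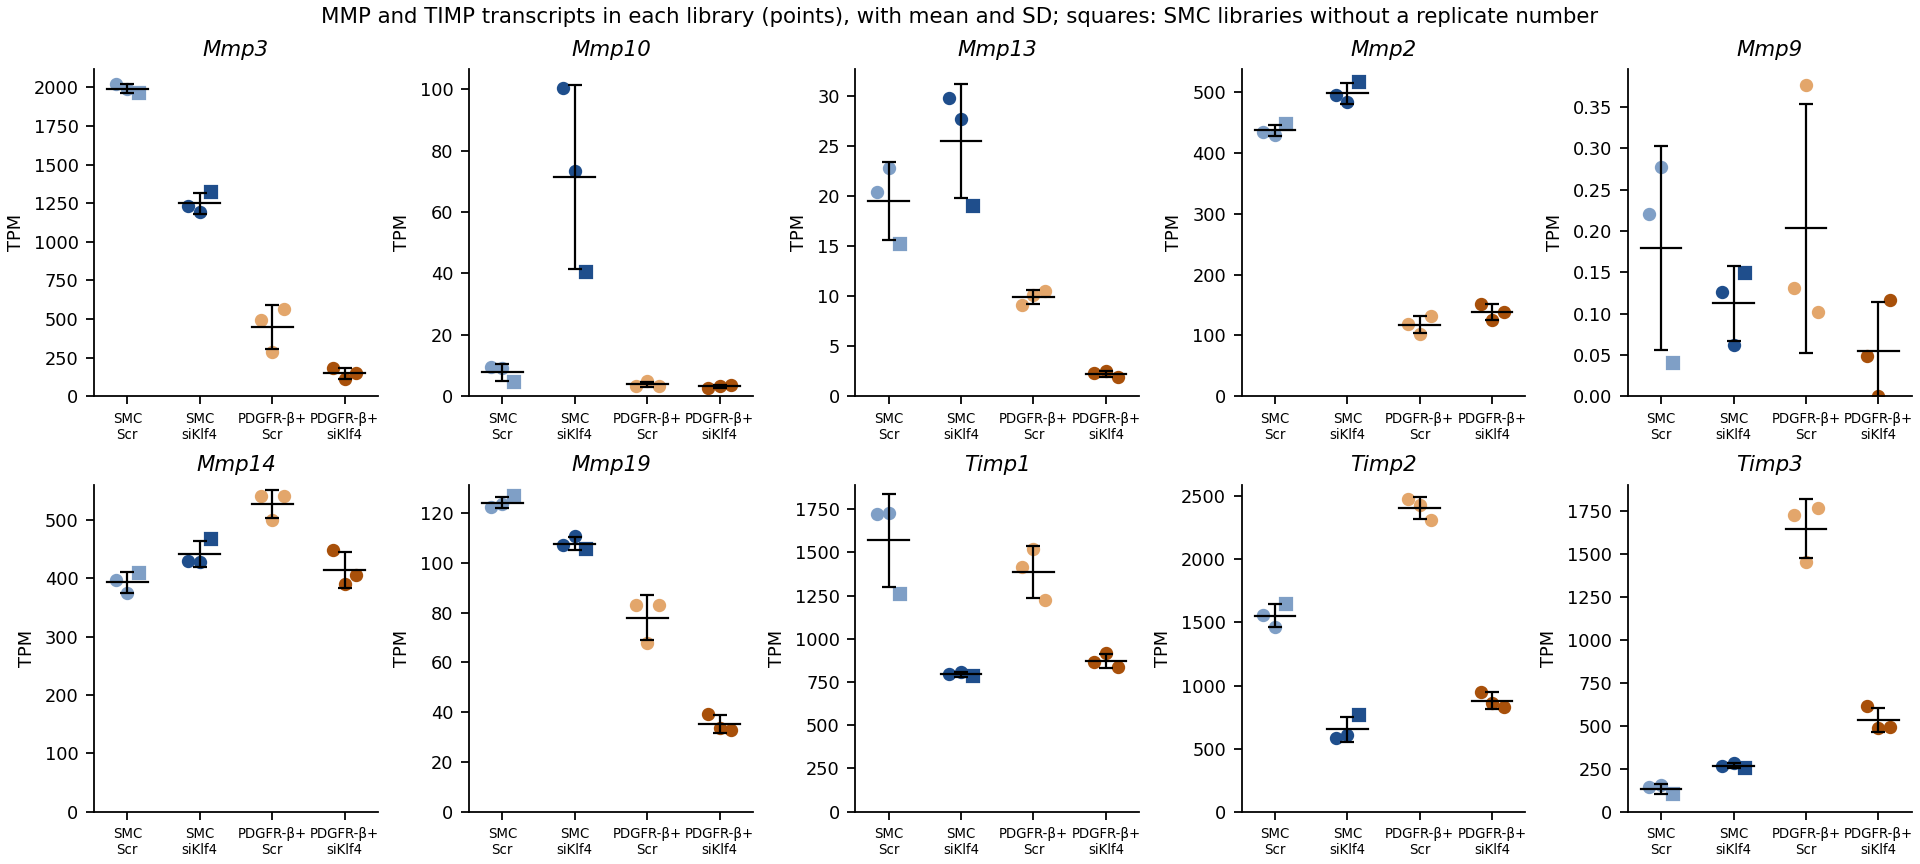
TPM of each member (vertical axis from 0, a scale of its own per gene) in the 12 libraries by group, with the mean and SD, where squares are the SMC libraries without a replicate number. Mmp10 stood at 40.5 to 101 TPM in siKlf4 SMCs and under 10 TPM in every other library, and Timp3 was higher with siKlf4 in SMCs and lower with siKlf4 in PDGFR-β+ cells.

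Mmp3 (ENSMUSG00000043613.8, chromosome 9, 7445822 to 7455975) encodes stromelysin-1, which cleaves proteoglycans, laminin and fibronectin and activates other proenzymes. It was the most abundant member in SMCs, with 1963, 2021 and 1989.9 TPM in Scr and 1323, 1230.2 and 1191 TPM in siKlf4 libraries. All siKlf4 libraries lay below all Scr libraries, and 62.7% of the Scr mean was left. In PDGFR-β+ cells it measured 495, 286 and 565 TPM under Scr against 186, 112 and 149.9 TPM under siKlf4, which left 33.3%. There too the groups did not overlap, although the Scr libraries spread widely, with replicate 2 far below the other two. The difference was -0.67 (SE 0.065) in SMCs and -1.55 (SE 0.27) in PDGFR-β+ cells on the log2(TPM + 1) scale, the scale of all differences that follow.

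Mmp10 (ENSMUSG00000047562.3, chromosome 9, 7502352 to 7510240) encodes stromelysin-2, a close relative of stromelysin-1 with overlapping substrates. In SMCs it measured 4.59, 9.51 and 9.19 TPM under Scr against 40.5, 101 and 73.4 TPM under siKlf4. Every siKlf4 library was above every Scr library, and the mean was 9.20-fold higher. In PDGFR-β+ cells it stayed low, at 3.37, 4.89 and 3.37 TPM under Scr against 2.65, 3.41 and 3.58 TPM under siKlf4, and the groups overlapped. The difference was 3.01 (SE 0.37) in SMCs and -0.20 (SE 0.17) in PDGFR-β+ cells. In SMCs it was 3.07 within the numbered libraries and 2.89 between the unnumbered ones, although both unnumbered libraries had the lowest level of their group. Mmp10 and Mmp3 transcripts share 140 stretches of 50 bases, 8.37% of those in Mmp10 and 7.99% of those in Mmp3, so some reads could have been assigned to either gene. Between the SMC groups, siKlf4 libraries had lower Mmp3 and higher Mmp10, while within Scr SMCs both were lowest in the unnumbered library. The part of shared reads in these values was not tested.

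Mmp13 (ENSMUSG00000050578.10, chromosome 9, 7272514 to 7283331) encodes collagenase-3, which opens the triple helix of fibrillar collagen. PDGFR-β+ cells had 9.14, 10.2 and 10.5 TPM under Scr against 2.30, 2.53 and 1.93 TPM under siKlf4. The groups were far apart, and 22.7% of the Scr mean was left. In SMCs it measured 15.3, 20.5 and 22.8 TPM under Scr against 19.0, 29.8 and 27.7 TPM under siKlf4, and the groups overlapped because the unnumbered siKlf4 library was below both numbered Scr libraries. The difference was 0.36 (SE 0.20) in SMCs and -1.75 (SE 0.12) in PDGFR-β+ cells.

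The gelatinases Mmp2 and Mmp9 digest denatured collagen and basement membrane collagen, and they were far apart in level. Mmp2 (ENSMUSG00000031740.8, chromosome 8, 92827291 to 92853420) measured 447, 434 and 429.9 TPM in Scr and 516, 495 and 483 TPM in siKlf4 SMCs. The groups did not overlap, with a difference of 0.19 (SE 0.058). In PDGFR-β+ cells Mmp2 measured 119, 103 and 132 TPM under Scr against 151, 125 and 139 TPM under siKlf4, and the groups overlapped, with a difference of 0.23 (SE 0.11). Mmp9 (ENSMUSG00000017737.2, chromosome 2, 164940780 to 164955850), which neutrophils and macrophages make in quantity, was at 0.38 TPM or less in all 12 libraries and was left out of the fits. Of 6 neutrophil markers, S100a9, Mpo and Cxcr2 were listed at 0 in all libraries, Ly6g and Elane did not exceed 0.33 TPM, and S100a8 measured 2.50 to 30.7 TPM in SMCs and up to 1.54 TPM in PDGFR-β+ cells. Of the macrophage markers, Cd14 measured 20.0 to 42.3 TPM in SMCs and Lyz2 9.49 to 20.3 TPM in PDGFR-β+ cells. Cd68 and Csf1r reached at most 9.62 and 2.995 TPM in any library. Ptprc, Adgre1 and Mrc1 reached at most 0.266, 0.105 and 0.3203 TPM, and Cd163 was listed at 0 in all libraries.

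Mmp14 (chromosome 14, 54431612 to 54445364) encodes a membrane-anchored collagenase that activates pro-MMP2 at the cell surface. It measured 409, 398 and 374 TPM in Scr and 467, 429.6 and 427 TPM in siKlf4 SMCs. The siKlf4 libraries were slightly higher with no overlap, at 1.12-fold in the mean. In PDGFR-β+ cells it measured 542, 500.3 and 541 TPM under Scr against 448, 389.7 and 405 TPM under siKlf4, so that the siKlf4 libraries were the lower ones and 78.5% of the Scr mean was left. The difference was 0.16 (SE 0.067) in SMCs and -0.35 (SE 0.076) in PDGFR-β+ cells.

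Mmp19 (ENSMUSG00000025355.7, chromosome 10, 128790910 to 128800824), a secreted MMP that acts on basement membrane proteins, was lower with siKlf4 in both cell types without overlap. In SMCs it measured 127, 122 and 124 TPM under Scr against 106, 107 and 111 TPM under siKlf4, with 86.8% left. PDGFR-β+ cells had 83.2, 67.7 and 83.3 TPM under Scr against 39.3, 33.5 and 33.0 TPM under siKlf4, with 45.2% left. The difference was -0.20 (SE 0.058) and -1.12 (SE 0.11), respectively. Mmp19 shares its locus with Tmem198b on the other strand, which measured 15.7 to 25.0 TPM, and while the libraries were made strand-specific, whether the counting used strand is not given in the sources used here.

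Timp1 (ENSMUSG00000001131.11, chromosome X, 20870166 to 20874735) encodes a secreted inhibitor of most soluble MMPs. In SMCs it measured 1259, 1725 and 1726 TPM under Scr against 782, 794 and 809 TPM under siKlf4. The unnumbered Scr library was well below the numbered ones and still above all siKlf4 libraries, so the difference of -0.97 (SE 0.13) was -1.11 within the numbered libraries and -0.69 between the unnumbered ones. In PDGFR-β+ cells Timp1 measured 1416, 1518 and 1222 TPM under Scr against 863, 917 and 839 TPM under siKlf4, a difference of -0.66 (SE 0.092). The groups did not overlap in either cell type, and 50.6% of the Scr mean was left in SMCs and 63.0% in PDGFR-β+ cells.

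Timp2 (ENSMUSG00000017466.9, chromosome 11, reverse strand, 118301069 to 118355740) encodes an inhibitor that is also the adaptor with which MMP14 binds and activates pro-MMP2. In SMCs it measured 1646, 1556 and 1464 TPM under Scr against 764, 587 and 606 TPM under siKlf4, with 41.9% left. In PDGFR-β+ cells it measured 2480.3, 2435 and 2312 TPM under Scr against 952, 859.6 and 829 TPM under siKlf4, with 36.5% left. In both cell types the lowest Scr library was well above the highest siKlf4 library, and the differences were -1.26 (SE 0.11) and -1.45 (SE 0.075). Cep295nl, a gene nested in Timp2 on the same strand, measured 7.22 to 32.9 TPM.

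Timp3 (ENSMUSG00000020044.13, chromosome 10, 86300372 to 86349506) encodes the inhibitor that stays bound to the matrix and also blocks ADAM17 and the aggrecanases of the ADAMTS family. In SMCs it measured 102, 143 and 156 TPM under Scr against 255, 263 and 282 TPM under siKlf4, a 2.00-fold higher mean. PDGFR-β+ cells had 1725, 1453 and 1767 TPM under Scr against 613, 489.7 and 492 TPM under siKlf4, with 32.3% left. The groups did not overlap in either cell type, and the order of Scr and siKlf4 was opposite. The difference was 1.02 (SE 0.15) in SMCs, with 0.86 within the numbered libraries and 1.32 between the unnumbered ones, and it was -1.63 (SE 0.12) in PDGFR-β+ cells. Timp3 lies inside Syn3, which is on the other strand and did not exceed 0.60 TPM.

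**Figure D2:**
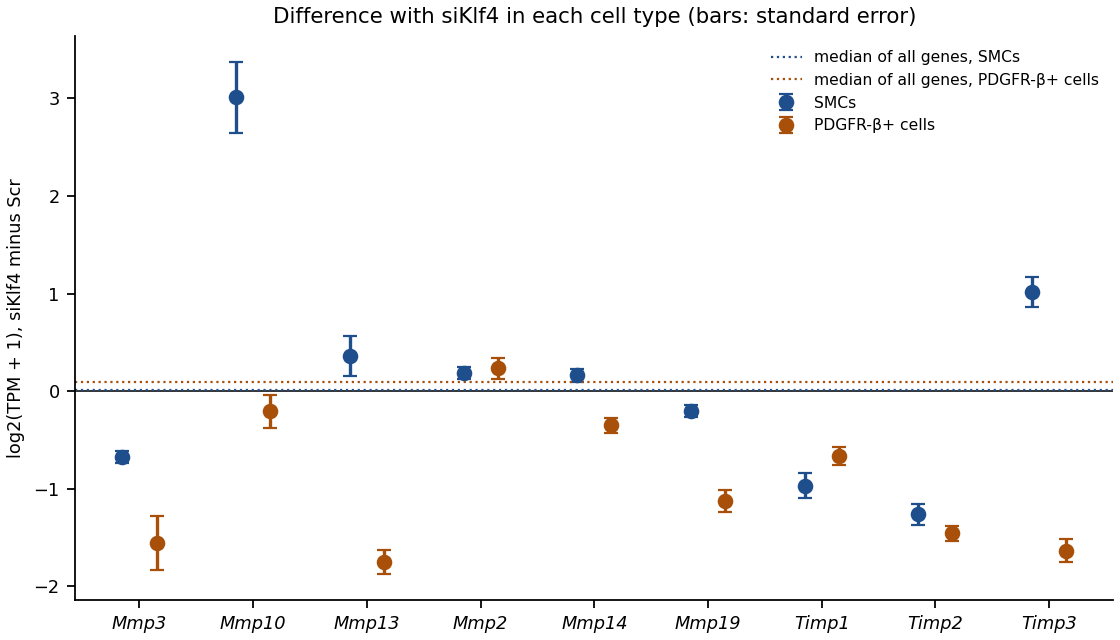
Difference on the log2(TPM + 1) scale, siKlf4 minus Scr, of the 9 members that averaged 1 TPM or more, in SMCs (blue) and PDGFR-β+ cells (orange), with standard errors and with dotted lines at the median of all tested genes. Mmp10 (3.01 against -0.20), Mmp13 (0.36 against -1.75), Mmp14 (0.16 against -0.35) and Timp3 (1.02 against -1.63) were on opposite sides of 0.

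The difference in SMCs minus that in PDGFR-β+ cells was 3.21 (SE 0.44) for Mmp10, 2.65 (SE 0.21) for Timp3 and 2.11 (SE 0.25) for Mmp13. It was 0.92 (SE 0.13) for Mmp19, 0.88 (SE 0.31) for Mmp3 and 0.51 (SE 0.10) for Mmp14. It was 0.19 (SE 0.14) for Timp2, -0.31 (SE 0.17) for Timp1 and -0.05 (SE 0.13) for Mmp2. Within the numbered and between the unnumbered SMC libraries, the siKlf4 difference was -0.73 and -0.57 for Mmp3, 0.39 and 0.30 for Mmp13, 0.18 and 0.21 for Mmp2, 0.15 and 0.19 for Mmp14, -0.17 and -0.26 for Mmp19, and -1.34 and -1.11 for Timp2. Each of the 9 fitted members thus kept its direction in both sets, while Mmp9, which was not fitted, did not. Scaling each library by its median ratio to a common reference moved the median of all genes in PDGFR-β+ cells by -0.10 and kept the direction of each fitted member in each cell type. The share of called genes that were higher with siKlf4 in PDGFR-β+ cells was 62.3% as deposited and 47.0% with that scaling.

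At baseline the members filled a wide range. In Scr SMCs the order by mean TPM was Mmp3 (1992 ± 29.0, SD, n = 3), Timp1 (1570.0 ± 269), Timp2 (1555 ± 90.8), Mmp2 (437 ± 9.16), Mmp14 (394 ± 18.0), Timp3 (133 ± 28.3), Mmp19 (124 ± 2.25), Mmp13 (19.5 ± 3.88), Mmp10 (7.77 ± 2.75) and Mmp9 (0.179 ± 0.124). Neighbours whose libraries overlapped were Timp1 and Timp2, and Timp3 and Mmp19. In Scr PDGFR-β+ cells the order was Timp2 (2409 ± 87.3), Timp3 (1648 ± 171), Timp1 (1385 ± 150), Mmp14 (528 ± 23.9), Mmp3 (449 ± 145), Mmp2 (118 ± 14.5), Mmp19 (78.1 ± 8.98), Mmp13 (9.94 ± 0.713), Mmp10 (3.88 ± 0.879) and Mmp9 (0.203 ± 0.151). Here Timp3 overlapped Timp1, and Mmp14 overlapped Mmp3.

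With siKlf4, Mmp10 stood above Mmp13 in SMCs, at 71.5 ± 30.0 against 25.5 ± 5.71 TPM (SD, n = 3), the reverse of their order with Scr. By rank among all genes above 0, Mmp3 was number 41 in Scr and 81 in siKlf4 SMCs, and Mmp10 went from 9930 to 2576. In PDGFR-β+ cells Timp3 was number 53 with Scr and 244 with siKlf4, and Mmp3 went from 312 to 1115.

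The cell types stand in separate tables, so their Scr levels can be set side by side with no test. For routine culture the methods give SMC medium with EGF and FGF for SMCs and low glucose DMEM for Zs+ cells. They give supplemented SMC medium for the 72 h after transfection. Cell type, source and earlier culture cannot be told apart here. Mean Scr levels were 4.44-fold higher in SMCs for Mmp3, 3.71-fold for Mmp2, 2.00-fold for Mmp10, 1.96-fold for Mmp13 and 1.59-fold for Mmp19. They were 12.4-fold higher in PDGFR-β+ cells for Timp3, 1.55-fold for Timp2 and 1.34-fold for Mmp14. Timp1 was at similar levels, 1.13-fold higher in SMCs.

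Summed over members, Scr SMCs held 2974 ± 28.3 TPM of the 7 MMPs and 3259 ± 222 TPM of the 3 TIMPs (SD, n = 3), and siKlf4 SMCs held 2393 ± 79.7 and 1714 ± 80.5 TPM. The ratio of the MMP sum to the TIMP sum was 0.987, 0.878 and 0.882 in Scr and 1.37, 1.46 and 1.36 in siKlf4 SMCs. Counting these members only, each siKlf4 library thus had more MMP than TIMP transcripts and each Scr library fewer. Other MMPs are outside these sums. In Scr SMCs Mmp23 measured 157 to 170 TPM and Mmp8 74.5 to 79.0 TPM, so the side of 1 depends on the choice of members.

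Scr PDGFR-β+ cells held 1186 ± 190 TPM of MMPs and 5443 ± 163 TPM of TIMPs, and siKlf4 PDGFR-β+ cells held 743 ± 82.1 and 2285 ± 135 TPM. The ratio was 0.223, 0.180 and 0.252 with Scr and 0.342, 0.294 and 0.339 with siKlf4. Among the members, TIMP transcripts thus outnumbered MMP transcripts in every library. Both sums were lower with siKlf4 in both cell types, and the ratio was higher. Without Mmp3 the MMP sum in SMCs was the other way, at 960.0 to 1003 TPM with Scr and 1122 to 1162 TPM with siKlf4, and in PDGFR-β+ cells it was 686 to 770.3 and 554 to 644 TPM. Mmp3 made up 67.0% of the MMP sum in Scr SMCs, 52.1% in siKlf4 SMCs, 37.1% in Scr PDGFR-β+ cells and 19.9% in siKlf4 PDGFR-β+ cells. Timp3 made up 4.07% of the TIMP sum in Scr and 15.6% in siKlf4 SMCs, and 30.3% and 23.2% in PDGFR-β+ cells. Without Mmp3 and Timp2 the mean ratio was 0.591 and 1.08 in SMCs and 0.243 and 0.423 in PDGFR-β+ cells, in the order Scr and siKlf4. These are ratios of transcripts, and proteins and enzyme activity were not analysed here.

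**Figure D3:**
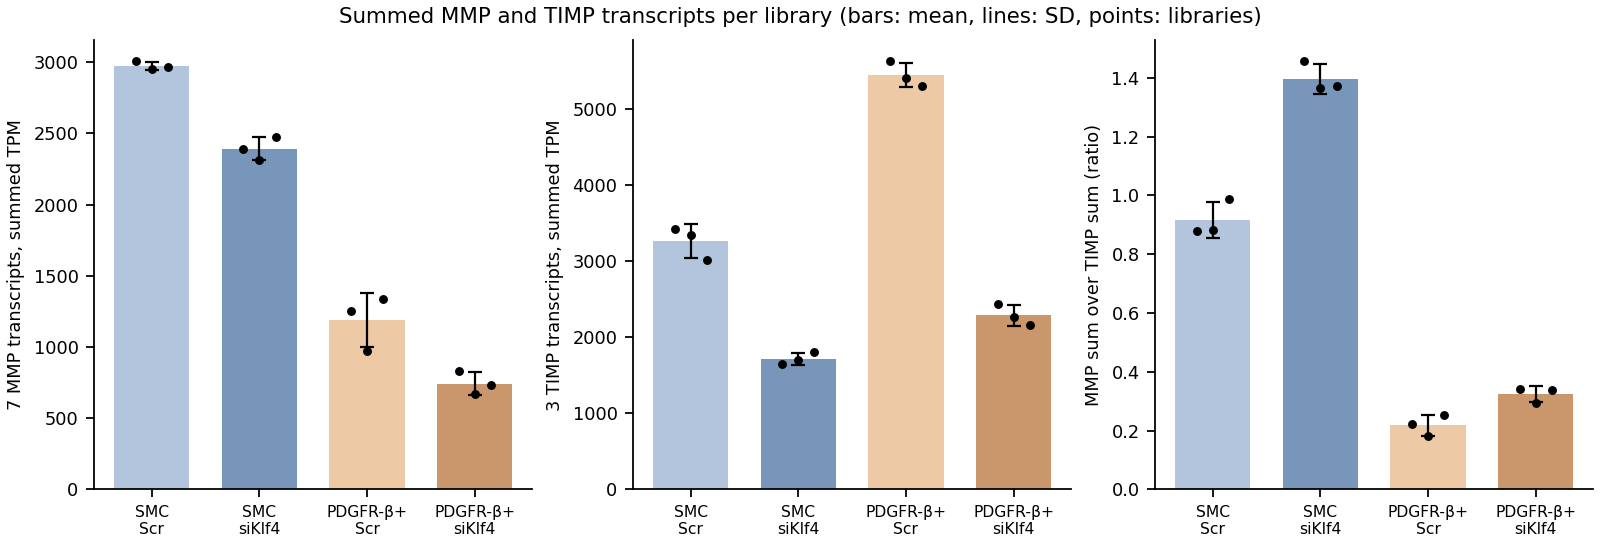
Summed TPM of the 7 MMPs (left) and the 3 TIMPs (middle) and the ratio of these sums (right) in the 4 groups, with bars at the mean, lines for the SD and a point per library. The ratio was 0.915 in Scr and 1.40 in siKlf4 SMCs and 0.218 and 0.325 in PDGFR-β+ cells.

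Around Mmp3, Mmp10 and Mmp13 the other genes of the chromosome 9 cluster were mostly at or near 0. Mmp7 was listed at 0 in all libraries, and Mmp20, Mmp12, Mmp1a and Mmp1b did not exceed 0.41 TPM. Mmp8, the neutrophil collagenase, measured 74.5 to 79.0 TPM in Scr and 55.2 to 68.6 TPM in siKlf4 SMCs, and its difference of -0.28 (SE 0.095) did not pass the test (adjusted p = 0.066, limma). It passed in 3 of 9 alternative fits (adjusted p down to 0.0169, limma) and in 0 of 6 with a library left out. In PDGFR-β+ cells Mmp8 did not exceed 1.33 TPM. Mmp27, a little-studied member of the stromelysin group, fell in PDGFR-β+ cells from 2.92 to 0.804 TPM (difference -1.11, SE 0.16, adjusted p = 0.00132, limma), and in SMCs it measured 3.86 and 2.53 TPM (adjusted p = 0.0547, limma). In SMCs Mmp27 passed in 2 of 8 alternative fits and in 1 of 6 with a library left out (adjusted p down to 0.0223, limma). The flanking genes Dcun1d5 and Tmem123 were expressed in all groups, at 76.7 TPM or more.

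**Figure D4:**
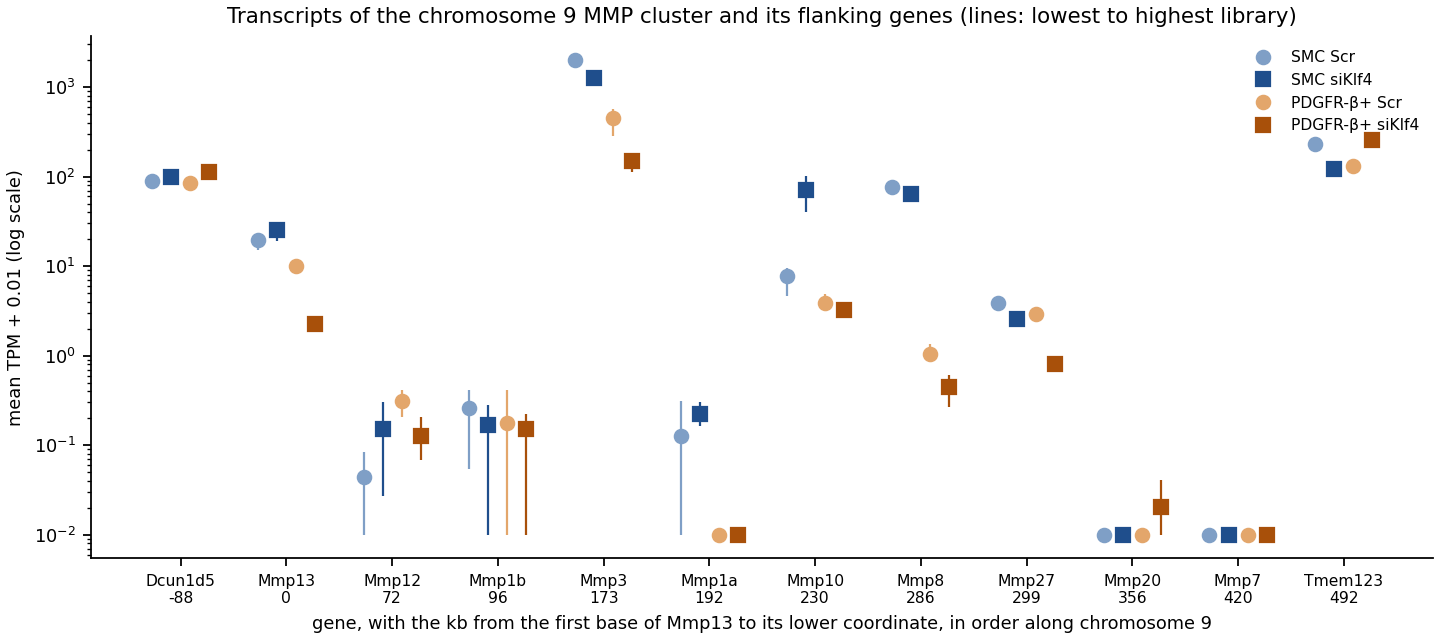
Mean TPM plus 0.01 (log scale) of the genes of the chromosome 9 MMP cluster and the genes flanking it, in order of position, with lines from the lowest to the highest library and distances in kb from the first base of Mmp13. Points at 0.01 are genes listed at 0, and of the cluster Mmp3 was highest in all groups, while Mmp10 (71.5 TPM) exceeded Mmp8 (63.5 TPM) in siKlf4 SMCs.

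Of the 16 other MMP genes, 8 entered the SMC test and 7 the PDGFR-β+ test. In SMCs 0 rose and 1 fell, and in PDGFR-β+ cells 3 rose and 2 fell. Of all tested genes, 28.5% were called in SMCs (15.6% higher and 12.9% lower) and 40.6% in PDGFR-β+ cells (25.3% higher and 15.3% lower), and the counts of this list and of those that follow stand beside these shares. The median difference was -0.22 in SMCs and 0.28 in PDGFR-β+ cells, beside 0.02 and 0.10 for all tested genes. Mmp23, a membrane MMP without the usual haemopexin domain, fell in SMCs from 162 to 87.0 TPM (difference -0.89, SE 0.063, adjusted p = 7.0e-04) and rose in PDGFR-β+ cells from 31.9 to 53.0 TPM (0.70, SE 0.13, adjusted p = 0.00388, limma). These effects differed between the cell types (interaction -1.59, SE 0.15, adjusted p = 1.9e-05, limma), as was called for 33.0% of the 13032 genes tested for such a difference. In PDGFR-β+ cells the membrane-type Mmp16 rose from 39.6 to 69.5 TPM (adjusted p = 2.3e-04) and Mmp11, stromelysin-3, from 30.9 to 42.0 TPM (adjusted p = 0.00208), while Mmp28 fell from 10.9 to 5.34 TPM (adjusted p = 0.00227, limma). In SMCs Mmp16 measured 13.9 and 17.0 TPM, Mmp11 28.9 and 33.3 TPM and Mmp28 5.33 and 3.22 TPM, with adjusted p of 0.218, 0.366 and 0.0553 (limma). Mmp28 passed in SMCs in 1 of 6 fits with a library left out (adjusted p = 0.0414, limma). The difference between the cell types did not pass the test for Mmp16, Mmp11 and Mmp28 (adjusted p = 0.0603, 0.381 and 0.346). Mmp15 and Mmp17 did not exceed a mean of 2.89 TPM and did not pass the test in either cell type (adjusted p of 0.216 or more, limma).

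Inhibitors other than the TIMP members were Reck, a membrane-anchored glycoprotein that blocks several MMPs, Tfpi2, a serine protease inhibitor, and A2m, which traps proteases of all classes. Of the 5 on the list, 3 were tested in SMCs, where 0 rose and 2 fell (median difference -0.83), and 2 in PDGFR-β+ cells, where 0 rose and 1 fell (median -0.39). In SMCs Reck fell from 70.0 to 39.0 TPM (adjusted p = 0.00791) and A2m from 45.3 to 19.7 TPM (adjusted p = 0.0169, limma). The call of A2m was lost without siKlf4 replicate 2 (adjusted p = 0.0584) or replicate 3 (adjusted p = 0.0575). In PDGFR-β+ cells Tfpi2 fell from 8.27 to 5.74 TPM (adjusted p = 0.00993, limma), and Reck measured 48.7 and 38.8 TPM (adjusted p = 0.0671, limma). In SMCs Tfpi2 measured 8.45 and 12.0 TPM (adjusted p = 0.332), which was 0.0228 in the numbered libraries alone.

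Proenzymes are activated by furin-type convertases and by plasmin, which the plasminogen activators release. Of 11 such genes, 6 were tested in each cell type, with 2 rising and 0 falling in SMCs (median difference -0.03) and 1 rising and 0 falling in PDGFR-β+ cells (median 0.19). Plau, urokinase, rose from 24.1 to 41.5 TPM in SMCs (0.76, SE 0.13, adjusted p = 0.00627) and from 68.6 to 122 TPM in PDGFR-β+ cells (0.82, SE 0.077, adjusted p = 2.2e-04, limma). The convertase Pcsk7 rose in SMCs from 17.7 to 25.7 TPM (adjusted p = 0.00839, limma). Plat was not called in either cell type, and Plg, the gene of plasminogen itself, was listed at 0 in all libraries.

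Of 8 receptors that dock MMPs at the cell surface or clear them, all were tested. In SMCs 3 rose and 1 fell (median 0.25), and in PDGFR-β+ cells 0 rose and 6 fell (median -0.52), where 15.3% of all tested genes fell. The integrin subunit Itgav rose from 48.7 to 89.5 TPM in SMCs (0.86, SE 0.073, adjusted p = 9.6e-04) and fell from 121 to 84.8 TPM in PDGFR-β+ cells (-0.51, SE 0.12, adjusted p = 0.012, limma), and these effects differed (interaction adjusted p = 4.6e-05). The hyaluronan receptor Cd44 rose from 173 to 228 TPM in SMCs (adjusted p = 0.0177) and fell from 447 to 307 TPM in PDGFR-β+ cells (adjusted p = 0.00378, limma), with an interaction adjusted p of 4.1e-04. The endocytic receptor Lrp1, which clears MMPs and MMP-TIMP complexes, fell in PDGFR-β+ cells from 867 to 495 TPM (adjusted p = 0.0062), and caveolin-1 (Cav1) from 91.6 to 58.5 TPM (adjusted p = 0.00219, limma). Syndecan-1 (Sdc1) fell in both, from 94.0 to 53.0 TPM in SMCs (adjusted p = 9.97e-04) and from 76.0 to 46.1 TPM in PDGFR-β+ cells (adjusted p = 7.6e-04, limma). Bsg, an inducer of MMPs on neighbouring cells, measured 950 and 1136 TPM in SMCs (adjusted p = 0.0345), a call that was lost without each of the SMC libraries except Scr replicate 2 (adjusted p up to 0.10). The SMC call of Cd44 was lost without Scr replicate 2 (adjusted p = 0.0568) or siKlf4 replicate 2 (adjusted p = 0.0671).

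The ADAM sheddases are membrane proteases, some of which TIMP3 can block. Of 8 tested, 2 rose and 2 fell in SMCs (median 0.04) and 0 rose and 5 fell in PDGFR-β+ cells (median -0.47), beside the same 15.3%. Adam12 rose in SMCs from 26.7 to 45.0 TPM (0.73, SE 0.072, adjusted p = 0.00127) and fell in PDGFR-β+ cells from 46.8 to 19.9 TPM (-1.20, SE 0.10, adjusted p = 1.4e-04, limma), with a difference between the cell types of 1.93 (SE 0.12, adjusted p = 2.2e-06). Adam19 rose in SMCs from 37.7 to 63.0 TPM (adjusted p = 0.00119), and Adam33 fell there from 12.4 to 5.96 TPM (adjusted p = 0.00349, limma). Adam15 fell in SMCs from 159 to 88.6 TPM (adjusted p = 0.00351) and in PDGFR-β+ cells from 150.02 to 80.7 TPM (adjusted p = 0.00146, limma). Adam10 and Adam17, the chief sheddases, fell in PDGFR-β+ cells from 134 to 76.0 TPM (adjusted p = 0.013) and from 35.9 to 25.6 TPM (adjusted p = 0.00326, limma), and in SMCs they measured 142 and 148 TPM and 48.5 and 46.7 TPM, neither of which passed the test.

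**Figure D5:**
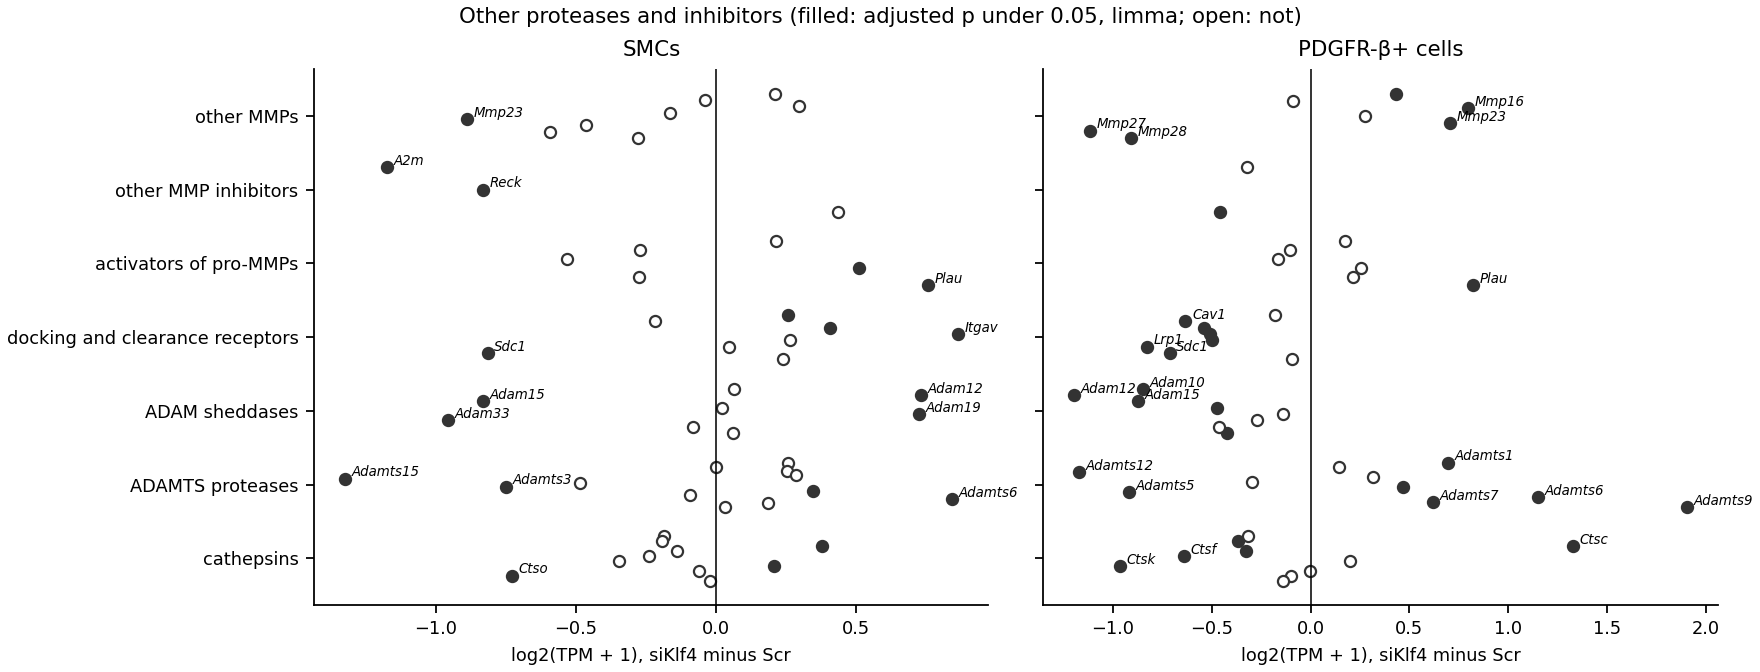
Difference on the log2(TPM + 1) scale, siKlf4 minus Scr, of each tested gene of 7 protease and inhibitor lists (rows) in SMCs (left) and PDGFR-β+ cells (right), where filled points have an adjusted p under 0.05 (limma) and names are given to those of at least 0.6 either way. Docking receptors and ADAMs lay on both sides of 0 in SMCs, and all of their calls in PDGFR-β+ cells were below 0.

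The ADAMTS proteases, secreted enzymes that include the aggrecanases, showed 2 rises and 2 falls among 12 tested in SMCs (median 0.11) and 5 rises and 2 falls among 10 tested in PDGFR-β+ cells (median 0.39). In SMCs Adamts15 fell from 94.6 to 37.9 TPM (-1.32, SE 0.23, adjusted p = 0.0067, limma). There the call of Adamts3 was lost without Scr replicate 2, siKlf4 replicate 2 or siKlf4 replicate 3 (adjusted p up to 0.0654), that of Adamts4 without any of these or Scr replicate 3 (up to 0.0964), and that of Adamts6 without each library except the unnumbered siKlf4 one (up to 0.119). In PDGFR-β+ cells Adamts9 rose from 5.53 to 23.6 TPM (1.91, SE 0.16, adjusted p = 1.2e-04) and Adamts6 from 8.21 to 19.6 TPM (adjusted p = 0.00315), while Adamts12 fell from 8.19 to 3.07 TPM (adjusted p = 3.0e-04) and Adamts5 from 202 to 105 TPM (adjusted p = 0.00595, limma). Adamts9 measured 22.6 and 23.2 TPM in SMCs (adjusted p = 0.843), and its effect differed between the cell types (adjusted p = 5.3e-05).

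Of 10 cathepsins tested, which degrade matrix in lysosomes and around the cell, 2 rose and 1 fell in SMCs (median -0.16) and 1 rose and 4 fell in PDGFR-β+ cells (median -0.23). Cathepsin C (Ctsc), an activator of serine proteases, rose from 21.8 to 55.7 TPM in PDGFR-β+ cells (1.33, SE 0.12, adjusted p = 1.8e-04) and from 178 to 232 TPM in SMCs (0.38, SE 0.076, adjusted p = 0.0117, limma). The collagenolytic cathepsin K (Ctsk) fell from 202 to 103 TPM in PDGFR-β+ cells (-0.96, SE 0.066, adjusted p = 5.5e-05). In SMCs Ctsk measured 75.2 and 87.0 TPM (adjusted p = 0.047, limma), a call lost whichever of the 6 libraries was left out (adjusted p 0.0734 to 0.127). The SMC call of Ctso, from 40.5 to 23.8 TPM, was lost without Scr replicate 2 (adjusted p = 0.0532), siKlf4 replicate 2 (0.0666) or siKlf4 replicate 3 (0.0624).

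Among 12 AP-1 and ETS factors, the families classically tied to stromelysin and collagenase promoters, 6 rose and 0 fell in SMCs (median 0.21) and 4 rose and 1 fell in PDGFR-β+ cells (median 0.10). Etv1 rose from 5.03 to 12.0 TPM in SMCs (adjusted p = 0.00423) and from 3.23 to 11.6 TPM in PDGFR-β+ cells (adjusted p = 0.00172, limma). Etv4, of the PEA3 group of ETS factors, rose from 6.04 to 18.4 TPM in SMCs (1.45, SE 0.23, adjusted p = 0.00564) and from 12.0 to 20.1 TPM in PDGFR-β+ cells (adjusted p = 0.0286, limma). The latter call was lost without Scr replicate 1 or 3 or siKlf4 replicate 2 or 3 (adjusted p up to 0.0918) and with median-ratio scaling (0.052). The study's own DESeq2 analysis reports Etv4 as upregulated in SMCs but not significantly in PDGFR-β+ cells, with only a trend there. The call of Ets1 (adjusted p = 0.0299 in SMCs and 0.0373 in PDGFR-β+ cells) was lost in SMCs without each library except the unnumbered Scr one (up to 0.102), and in PDGFR-β+ cells without Scr replicate 3 or any siKlf4 library (up to 0.11). Fosl1, an AP-1 subunit, rose in SMCs from 19.8 to 38.0 TPM (adjusted p = 0.00803) and measured 39.5 and 38.7 TPM in PDGFR-β+ cells (adjusted p = 0.982), with a difference of 0.93 (SE 0.28, adjusted p = 0.0258, limma) that was lost without the unnumbered Scr library, siKlf4 replicate 2 or 3 of SMCs, or siKlf4 replicate 1 or 3 of PDGFR-β+ cells (adjusted p up to 0.061). A role of these factors in the members' levels was not tested.

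The transcripts most like each member over the 12 libraries were named by Pearson r of log2(TPM + 1) among 13031 genes, as a description, since all libraries of a group share their treatment and table. For Mmp10 it was H2-Ab1, an MHC class II chain (r = 0.987), at 2.10 and 7.98 TPM in Scr and siKlf4 SMCs and 1.40 and 0.964 TPM in PDGFR-β+ cells. For Timp3 it was the BMP antagonist Grem1 (r = 0.994), at 249.9 and 389.6 TPM in SMCs and 2058 and 880.1 TPM in PDGFR-β+ cells. For Mmp3 it was Nol3 (r = 0.995), followed by Olfr1033 (r = 0.994) and the matrix Gla protein Mgp (r = 0.993). For Timp2 the third was elastin, Eln (r = 0.972), at 6.16 and 1.66 TPM in SMCs and 14.2 and 4.12 TPM in PDGFR-β+ cells.

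Cell type markers moved with siKlf4 as well. The 6 smooth muscle markers summed to 1445 to 2238 TPM in Scr and 3345 to 4093 TPM in siKlf4 SMCs, with 5 of 6 higher by the test and none lower, and to 5496 to 6350 and 4621 to 4915 TPM in PDGFR-β+ cells, with 2 higher and 3 lower. The SMC call of Tagln was lost without Scr replicate 2, siKlf4 replicate 3 or the unnumbered siKlf4 library (adjusted p up to 0.0673). In PDGFR-β+ cells the call of Acta2 was lost without Scr replicate 1 or 2 or siKlf4 replicate 2 or 3 (up to 0.0961) and with quantile normalization (0.394), that of Smtn without each library except Scr replicate 2 (up to 0.115), and that of Des without Scr replicate 1, Scr replicate 3 or siKlf4 replicate 3 (up to 0.0585). The cells labelled SMCs had the lower summed level of these markers, most of which was Acta2. Acta2 measured 1031 to 1567 TPM in Scr SMCs and 3969 to 4594 TPM in Scr PDGFR-β+ cells. The markers did not all have this order. Acta2 and Tagln were lower in SMCs with either RNA, and Des was higher there. With Scr, Myh11 and Cnn1 were lower in SMCs, and Smtn overlapped. With siKlf4, Myh11 (40.7 to 61.9 against 31.2 to 36.7 TPM) and Smtn were higher in SMCs, and Cnn1 overlapped. The 6 markers of PDGFR-β+ mesenchyme, Pdgfrb among them, summed to 1923 to 2293 TPM in Scr and 1767 to 2043 TPM in siKlf4 SMCs, with 0 higher and 1 lower (Cspg4), and to 2446 to 2862 and 1628 to 2197 TPM in PDGFR-β+ cells, with 0 higher and 3 lower (Pdgfrb, Col1a1 and Cspg4). The call of Pdgfrb was lost without Scr replicate 1 or 3 or siKlf4 replicate 2 or 3 (up to 0.0748), and that of Cspg4 in SMCs without any of the 4 numbered libraries (up to 0.101).

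Of 8 macrophage markers, 3 reached a mean of 1 TPM in Scr and 2 in siKlf4 SMCs, and 4 and 3 in PDGFR-β+ cells. Their sum was lower with siKlf4 without overlap in both, at 45.6 to 49.6 and 25.1 to 29.8 TPM in SMCs and 35.7 to 37.2 and 29.1 to 34.0 TPM in PDGFR-β+ cells. In SMCs most of this sum was Cd14, at 39.8 to 42.3 TPM with Scr and 20.05 to 25.2 TPM with siKlf4. The markers did not move together in PDGFR-β+ cells. There Cd14 was higher with siKlf4, at 10.2 to 10.99 TPM against 6.63 to 7.04 TPM (adjusted p = 0.0027, limma). Lyz2 was lower, at 9.49 to 13.6 TPM against 17.3 to 20.3 TPM (adjusted p = 0.00538, limma). Csf1r was also called lower, and the groups overlapped for Cd68. Cd163 was listed at 0 throughout. Of 6 neutrophil markers S100a8 alone reached 1 TPM, in SMCs, where the list summed to 2.50 to 19.8 TPM with Scr and 6.11 to 30.7 TPM with siKlf4, and in PDGFR-β+ cells it did not exceed 1.66 TPM. The 6 endothelial markers summed to 1.34 to 2.65 TPM in Scr and 3.54 to 4.02 TPM in siKlf4 SMCs. In PDGFR-β+ cells they summed to 15.3 to 18.4 and 14.1 to 16.2 TPM. Most of this was Kdr, at 13.7 to 17.1 TPM with Scr and 11.8 to 12.9 TPM with siKlf4. In SMCs Kdr measured 0.502 to 0.798 and 2.69 to 3.12 TPM. Pecam1, Cdh5 and Vwf did not exceed 0.463 TPM in any library, and Tie1 was listed at 0. The 6 epithelial markers did not exceed 0.947 TPM in any library. The part of these shifts in the values of the MMPs and TIMPs was not tested.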

How the data were processed

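The authors aligned trimmed reads with HISAT2 (mm10, GENCODE genes) and quantified them with StringTie and ballgown. The deposited values are TPM per library, with SMCs and PDGFR-β+ cells in separate tables. The study itself ran DESeq2 on counts, and those counts are not used here. A target number of clusters is stated, and the depth reached cannot be read from TPM, so intervals for counting error are not given, and precision rests on 3 libraries per group. Among the SMC libraries, 1 with Scr and 1 with siKlf4 have columns without a number and were assigned to their group only.

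Genes averaging 1 TPM or more over the 6 libraries of a cell type were fitted on log2(TPM + 1) in R 4.3.3 with limma 3.58.1, using lmFit and a trended eBayes. P-values were two-sided, adjusted by the Benjamini-Hochberg method for all fitted genes, and called under 0.05. Effects of both cell types were compared by an interaction term over the 12 libraries. The pseudocount understates the change of low genes. The procedure was tested on simulated data with independent noise for each gene and library. That test does not cover deviations that libraries share. P-values set each difference against the spread between libraries, which may be technical.

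The members and the gene lists were chosen with earlier results of these data known. Named were all 10 members, Klf4, genes of the chromosome 9 cluster, all tested genes of the lists of other MMPs and inhibitors, up to 4 called genes per other list and cell type by size, and the 3 transcripts most like each member. Positions and overlapping genes come from GENCODE M21 (GRCm38), where the identifier of Mmp14 has another version than in the tables, and promoters from RefSeq (GRCm38.p6). Motifs were searched on both strands. Protein sequences were not analysed here. Alternatives were a pseudocount of 0.1, no filter, a filter at a mean of 5 TPM, scaling by median ratios, quantile normalization, eBayes without a trend, a block for the replicate number, an added term for unnumbered SMC libraries, the numbered SMC libraries alone, leaving out each library, sums without the most abundant members, and a shorter promoter.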

Additional observations from a re-analysis of the deposited data

Results flagged for a closer look

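Timp3 and Mmp14 went opposite ways in the cell types, with every siKlf4 library on one side of every Scr library in SMCs and on the other side in PDGFR-β+ cells. The groups did not overlap for 47.1% of all tested genes in SMCs and 53.8% in PDGFR-β+ cells. The share of genes that did so in opposite directions was not counted. In SMCs the mean of Mmp14 was only 1.12-fold higher with siKlf4. The difference was 1.02 and -1.63 for Timp3 and 0.16 and -0.35 for Mmp14, in SMCs and PDGFR-β+ cells. The difference between the cell types was not tested for these members, whose choice used it.

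For genes outside the members, the log2 difference in SMCs minus that in PDGFR-β+ cells was tested with the interaction term (limma, adjusted over 13032 genes, of which 33.0% were called). Among MMPs it was -1.59 for Mmp23 and 0.65 for Mmp27. Among ADAMs it was 1.93 for Adam12, 0.92 for Adam10, 0.87 for Adam19 and -0.68 for Adam33. Among ADAMTS proteases it was 1.43 for Adamts12, 0.82 for Adamts5 and -1.87 for Adamts9. For docking and clearance receptors it was 1.37 for Itgav, 0.95 for Cd44, 0.87 for Lrp1 and 0.44 for Bsg. For cathepsins it was 1.17 for Ctsk and -0.95 for Ctsc, and for transcription factors 0.93 for Fosl1 and -0.36 for Etv5. Among cell type markers it was 1.35 for Tagln, 1.30 for Acta2, 0.91 for Myh11, 0.52 for Smtn, 1.45 for Cspg4, 1.50 for Kdr and -1.42 for Cd14. The adjusted p ranged from 2.2e-06 for Adam12 to 0.0467 for Etv5. Leaving out single libraries ended the calls of Mmp27 (adjusted p up to 0.0716), Adam33 (up to 0.0866), Fosl1 (up to 0.061) and Etv5 (up to 0.103, lost without any of 10 of the 12 libraries). Other alternatives ended the calls of Bsg (no filter, 0.0517, and without the unnumbered SMC libraries, 0.0697), Adamts5 (without the unnumbered SMC libraries, 0.0518), Adam10 (no filter, 0.0531), Adam33 (up to 0.236, with a pseudocount of 0.1), Mmp27 (up to 0.0715), Fosl1 (no filter, 0.0635) and Etv5 (up to 0.136, with median-ratio scaling).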

How the results depend on the processing

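Each of the 9 fitted members kept the direction of its siKlf4 difference within a cell type under all alternatives run. Of the values of members under alternatives, 409 stayed within the spread, 8 moved further and 4 changed sign. Those 4 were the difference of Mmp2 between the cell types, -0.05 as reported and 0.051 with median-ratio scaling, 0.0013 with quantile normalization, 0.048 without PDGFR-β+ Scr replicate 2 and 0.020 without PDGFR-β+ siKlf4 replicate 1, in a range of -0.13 to 0.048 with 1 library left out. Genes called in SMCs numbered 3910, and 2216 to 3563 with 1 library left out, lowest without siKlf4 replicate 2. Without siKlf4 replicate 3 they were 2342 and without Scr replicate 2 they were 2539. Genes called in the 7 protease and inhibitor lists were 20, and 12 to 21 with 1 library left out, with 12 without siKlf4 replicate 2 and 13 without siKlf4 replicate 3. The numbered SMC libraries alone gave 3965 and 22, and a fit with an added term for SMC libraries without a number gave 5492 and 30. A replicate block gave 2853 called genes and 18 list genes in the numbered SMC libraries, and 5641 and 31 in PDGFR-β+ cells, beside 5559 and 30 without it. Calls ended by the block in SMCs were Cd44 (adjusted p = 0.0911), Bsg (0.0721), Adamts4 (0.0572), Adamts6 (0.0751), Ctsk (0.112), Etv5 (0.0508) and Cspg4 (0.0718). Deviations of libraries with the same number correlated at 0.19 and 0.20 in SMCs, those of the unnumbered SMC libraries at 0.36, and those in PDGFR-β+ cells at -0.02 to 0.07. Only 2 SMC pairs carry a number and no source ties a number to a shared batch, so the block was kept as an alternative. Among list genes, 2146 values under alternatives kept their side of the threshold, 160 lost the call and 57 gained it. The share of called genes that were higher was 62.3% in PDGFR-β+ cells, 47.0% with median-ratio scaling and 49.7% with quantile normalization, and for the difference between cell types it was 43.9% and 56.7% with median-ratio scaling. Without Mmp3 and Timp2 the ratio of sums was 0.591 and 1.08 in Scr and siKlf4 SMCs and 0.423 in siKlf4 PDGFR-β+ cells. In the 100 bases before the start, CACCC was in 4 and AGGAAG in 2 of 7 members. The cause of these shifts was not tested. TPM values limit what can be said of low genes such as Mmp9 and Mmp10 in PDGFR-β+ cells, since the depth reached is unknown.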
